A study of Danio rerio with 2 samples.

Results

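Enteric neural crest progenitors were examined here as the cells that carried RNA of a neural crest factor and an autonomic factor together. They held little RNA of the peptides and the enzyme of mature enteric neurons. Members were chosen by UMI counts (a UMI is a barcode that marks 1 captured RNA molecule). A member held at least 1 UMI of sox10, at least 2 UMIs of phox2bb and ascl1a summed, and fewer than 3 UMIs of vip, vipb, galn and nos1 summed. Per 10,000 UMIs of the cell it also held fewer than 10 of the iridophore gene pnp4a and fewer than 30 of the melanin genes dct, tyrp1b and pmela summed. In all 1237 of 11283 filtered cells were members. Of these, 751 came from the DMSO library of 4488 cells and 486 from the CVT-10216 library of 6795 cells.

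The enteric nervous system is built by neural crest cells that leave the hindbrain level of the neural tube, enter the foregut and migrate along it while dividing. They keep sox10, which encodes an HMG-box factor of crest and glia, and switch on phox2bb, which encodes the homeodomain factor that autonomic neurons need. The receptor tyrosine kinase Ret with its Gfra co-receptors, and Hand2 and Tlx2, mark the same lineage in mouse and fish. Sympathetic neurons use Hand2 as well, so that noradrenaline enzymes and axial Hox genes are needed to tell these lineages apart.

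Both groups were Tg(crestin:mCherry;mitfa:GFP) zebrafish embryos given MoTP, a prodrug that kills differentiating melanocytes, together with either DMSO or the Aldh2 inhibitor CVT-10216. Treatment began at 24 hpf, washout of the prodrug followed at 64 hpf, and trunks without heads were dissected 8 h later, at 72 hpf. Cells with GFP, mCherry or both were sorted together from pooled embryos, and each condition gave 1 library made with the 10x Genomics 3' kit. The question was how cells of regenerating melanocyte lineages differ when Aldh2 is inhibited, and enteric cells came along because the crestin transgene marks many crest derivatives.

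There was no replicate, so no p-value can be given. All intervals are exact 95% intervals (Poisson for UMIs, Clopper-Pearson for shares of cells) that cover counting error only, and differences between embryo pools, sorts or libraries lie outside them. Expression is given as CPM, the UMIs of a gene in a class of cells per 1000000 UMIs of that class. The libraries held 58976443 and 86348575 UMIs with a median of 8581 and 9487 per cell. Members had a median of 16912 UMIs in DMSO and 16082.5 in CVT-10216, enteric neurons 23579 and 26776.5, and all other cells 6354.5 and 8344. The libraries shared 4 barcode sequences, none of them of a member.

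Markers that the rule did not use describe the members further. They were chosen with earlier results of these data known, so their levels do not test the label. Against all other cells, hoxb5b, a Hox gene of the vagal crest, stood at 765 CPM (752 to 778) in DMSO members and 675 (659 to 690) in CVT-10216 members, against 93.5 and 42.4 CPM. The secreted glycoprotein gene stc2a stood at 145 and 117 CPM against 11.7 and 8.28. The zinc finger repressor gene prdm1a stood at 130 and 86.9 CPM against 14.2 and 5.9, and the Hairy gene her6 at 633 and 483 CPM against 170 and 76.9. All 4 remaining markers were therefore at least 2-fold higher than in other cells in both libraries, as were 6.8% of 16998 genes measured. Against enteric neurons stc2a and prdm1a were less than 2-fold higher, with log2 ratios of 0.76 and 0.11 for stc2a and 0.73 and 0.36 for prdm1a (DMSO, then CVT-10216). Unthinned, stc2a had a UMI in 48.1% and 35.8% of members and 39.8% and 35.4% of enteric neurons. These markers thus set members apart from all other cells more than from enteric neurons. The genes of the rule stood at 196 and 215 CPM (sox10), 1420 and 1419 CPM (phox2bb) and 284 and 237 CPM (ascl1a).

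A fraction of the members lacked hoxb5b. A UMI of hoxb5b was present in 684 of 751 DMSO members (91.1%, 88.8 to 93) and in 365 of 486 CVT-10216 members (75.1%, 71 to 78.9). Among enteric neurons the share was 97.6% and 97%, and among all other cells 17.7% and 10.1%. At an equal depth of 4000 UMIs per cell the share of members was 84.2% and 69.4%. Macrophages should lack these genes and were used as a rough gauge of the free RNA in the droplets. They held a hoxb5b UMI in 1.3% and 0.862% of cells at that depth. The gauge is not clean, as macrophages also held 2177 and 81.8 CPM of epithelial markers and 42.3 and 6601 CPM of erythroid markers. Macrophages had median depths of 9959 and 11704 UMIs. The members without hoxb5b, 67 in DMSO and 121 in CVT-10216, were shallower, with medians of 7300 and 8968 UMIs.

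Members without hoxb5b carried genes of other crest derivatives. Their dbh, the enzyme that makes noradrenaline, stood at 886 CPM in DMSO and 443 in CVT-10216, against 23.8 and 91.5 CPM in members with hoxb5b. For th, the first enzyme of catecholamine synthesis, the values were 350 and 159 against 6.37 and 27.1 CPM. The fatty acid binding protein gene fabp7a, a marker of crest glia, stood at 1911 and 2484 against 257 and 521 CPM. The LIM factor gene isl1, expressed in sensory and sympathetic neurons, stood at 258 and 256 against 15.6 and 41.6 CPM. Conversely stc2a stood at 1.53 and 12.2 against 151 and 133 CPM, and prdm1a at 3.05 and 8.82 against 135 and 99 CPM. The macrophage levels of these genes were 0.77 and 10.4 CPM. For etv1, an ETS factor of enteric neurons, members without hoxb5b held 7.64 and 8.14 CPM, against 150 and 153 CPM in those with it. Since hoxb5b split these cells, the values are a description. The rule thus also gathered cells with genes of sympathetic, glial and sensory lineages. The main results are given with and without the members lacking hoxb5b, but leaving those out does not remove every such cell. Over both libraries 55 members had 2 or more UMIs of th and dbh summed, and 29 of these carried hoxb5b. For 20 or more UMIs of fabp7a the numbers were 210 and 117. Among members without hoxb5b, only 9 of 67 (DMSO) and 17 of 121 (CVT-10216) reached that th and dbh count. The pooled dbh and th levels thus do not describe each of these cells.

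Cells at the limits of the rule differed by limit. Members with exactly 2 UMIs of phox2bb and ascl1a (49 cells) held 82.5 CPM of hoxb5b and 2860 CPM of fabp7a, and cells just outside with 1 UMI (206 cells in all, 89 and 117 per library) held 81.9 and 1453 CPM. The median member held 27 UMIs of both genes summed, with quartiles of 12 and 53 and a maximum of 282. Cells with 1 UMI of sox10 held 664 CPM of hoxb5b and 728 CPM of elavl4, a neuronal RNA-binding protein gene. Cells with none, 283 and 181 in the libraries, held 591 and 1217 CPM. These cells without sox10 were counted among all other cells. In that class phox2bb had a UMI in 17.4% of DMSO and 7.95% of CVT-10216 cells. Levels of enteric genes in all other cells, and the ratios to them, thus include such cells, and unevenly between the libraries. The limit on transmitter genes parted 99 cells with 2 UMIs from 51 with 3 UMIs, which held 810 and 837 CPM of hoxb5b and 544 and 459 CPM of her6.

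Members made up 16.7% (15.7 to 17.9) of the DMSO library and 7.15% (6.55 to 7.79) of the CVT-10216 library. On the log2 scale the CVT-10216 share was -1.23 (-1.39 to -1.06) relative to DMSO. Enteric neurons, the cells with phox2bb and at least 3 UMIs of vip, vipb, galn and nos1, made up 10.2% (9.31 to 11.1) and 6.45% (5.87 to 7.06), a log2 ratio of -0.66 (-0.85 to -0.47). The interval for members lay below that for neurons. There were 1.64 members per enteric neuron in DMSO and 1.11 in CVT-10216. Members were 62.2% (59.4 to 64.9) of both classes together in DMSO and 52.6% (49.3 to 55.9) in CVT-10216. The definition of enteric neurons set no limit on sox10, which had a UMI in 66.3% of them in DMSO and 73.7% in CVT-10216. After thinning to equal depth the shares were 32.6% and 35.3%, against 57.6% and 60.9% of members, where the rule required sox10. Enteric neurons with sox10 were kept out of the members by the raw transmitter count, which deeper cells reach more easily.

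The lower share was carried by cells with hoxb5b. They made up 15.24% (14.2 to 16.3) of the DMSO library and 5.37% (4.85 to 5.93) of the CVT-10216 library, whereas members without hoxb5b made up 1.49% (1.16 to 1.89) and 1.78% (1.48 to 2.12), with overlapping intervals. A stricter subset, defined after the data were seen, required hoxb5b, fewer than 2 UMIs of elavl3 and elavl4, and no th or dbh. It made up 8.4% (7.6 to 9.25) and 2.49% (2.13 to 2.89) of the libraries. These are shares of sorted cells of which GFP-positive pigment cells are a large part, so fewer enteric cells and more of the other sorted cells cannot be told apart. Among cells within the limits on pnp4a and the melanin genes, the share of members was 21.5% in DMSO and 10.3% in CVT-10216. Those limits do not concern xanthophore genes, so xanthophores could remain among the cells counted.

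**Figure D1:**
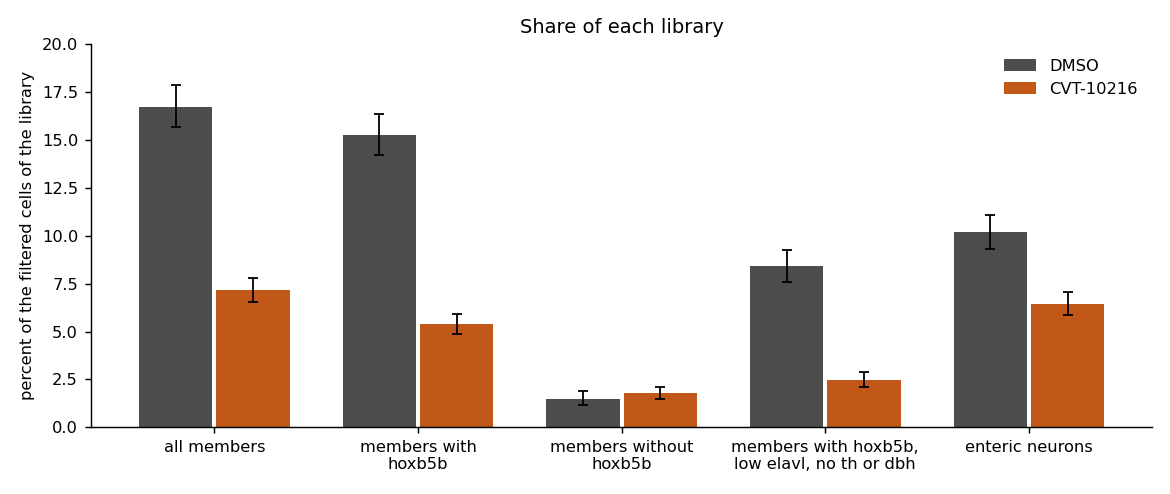
Percent of the filtered cells of each library (vertical axis) that were members, subsets of members, or enteric neurons. Bars are single libraries (grey DMSO, orange CVT-10216) and error bars are exact 95% Clopper-Pearson intervals. Members fell from 16.7% to 7.15%, members without hoxb5b stood at 1.49% and 1.78%, and enteric neurons at 10.2% and 6.45%.

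Members varied among themselves in how many of the rule's genes they held. In DMSO, 542 of 751 (72.2%) held both phox2bb and ascl1a, 208 (27.7%) held phox2bb alone and 1 held ascl1a alone. In CVT-10216, 296 of 486 (60.9%) held both, 181 (37.2%) phox2bb alone and 9 (1.85%) ascl1a alone. Cells with both genes were deeper (median 20522 UMIs) than cells with phox2bb alone (12288). At 4000 UMIs per cell 47.7% and 41.6% of members still held ascl1a, against 36.3% and 40% of enteric neurons and 6.21% and 1.84% of all other cells.

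Neuronal genes split the members more evenly. The RNA-binding protein genes elavl3 and elavl4 mark newborn neurons. At least 2 UMIs of them were found in 43.8% (40.2 to 47.4) of DMSO members and 52.7% (48.1 to 57.2) of CVT-10216 members, against 95.8% and 97% of enteric neurons. At 4000 UMIs per cell the shares of members were 22.9% and 37.6%. Members without any UMI of them, 306 in DMSO and 166 in CVT-10216, held less of the neuronal genes that the split did not use. In DMSO phox2a, the paralog of phox2bb, stood at 45.9 CPM in these cells and at 382 CPM in members with 2 or more. The growth cone gene gap43 stood at 67.8 and 215 CPM, and hand2, a bHLH factor of enteric and sympathetic neurons, at 401 and 720 CPM. Ret, by contrast, stood at 235 and 248 CPM, phox2bb at 1382 and 1475, and her6 at 660 and 603. In CVT-10216 the same order held for phox2a (24.9 and 487 CPM), gap43 (68.3 and 349) and hand2 (464 and 865). There ret stood at 200 and 216 CPM and phox2bb at 1330 and 1444, but her6 differed more, at 604 and 426 CPM. Cells with elavl genes were also deeper, with medians of 22314 and 21857.5 UMIs against 13105 and 12080.

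Several genes of glia and of sensory neurons were found in a larger fraction of CVT-10216 members. The share with at least 20 UMIs of fabp7a was 9.32% (7.34 to 11.6) in DMSO and 28.8% (24.8 to 33.1) in CVT-10216, and among members with hoxb5b 6.43% and 20%. For at least 2 UMIs of isl1 the shares were 4.26% (2.93 to 5.96) and 15.23% (12.1 to 18.7). For at least 2 UMIs of th and dbh summed they were 3.2% (2.06 to 4.72) and 6.38% (4.37 to 8.93), with overlapping intervals. The sensory neuron channel gene p2rx3b had a UMI in 1.2% and 4.53% of members, against 0.438% and 0.913% of enteric neurons. Enteric neurons differed in the same direction for fabp7a (7.88% and 19.9%) and isl1 (4.16% and 11.2%), and all other cells did not for isl1 (5.15% and 4.04%).

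The transgenes that gated the sort were thinly captured in members. GFP, driven by mitfa, had a UMI in 12.5% and 17.3% of members against 37% and 42.2% of all other cells, and in 13.6% and 7.87% of macrophages. At 4000 UMIs per cell GFP was found in 3.99% and 7.64% of members and in 7.79% and 2.59% of macrophages, so the share of members was not above that of macrophages in DMSO. mCherry, driven by crestin, had a UMI in 38.6% and 27% of members and in 0% and 1.57% of macrophages. The crestin RNA itself was found in 44.5% and 36.8% of members. These shares are unthinned, and members were deeper than other cells. Once thinned to 4000 UMIs per cell, mCherry was found in 11.3% and 7.86% of members and in 9.67% and 7.95% of all other cells. For crestin the thinned shares were 12% and 11% of members and 11.8% and 11.6% of all other cells. Members thus hardly differed from all other cells in either gene at equal depth. The mCherry level was 33.1 CPM in DMSO and 21.7 CPM in CVT-10216 members.

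Members expressed cell cycle genes at a high level. The proliferation marker mki67 stood at 676 CPM in DMSO and 553 CPM in CVT-10216 members, against 489 and 414 CPM in enteric neurons and 153 and 134 CPM in all other cells. At 4000 UMIs per cell it was found in 75.3% and 60.9% of members, 53.6% and 50.5% of enteric neurons, 16.9% and 15.7% of all other cells and 5.56% and 11.2% of spinal neurons, which are postmitotic. Unthinned, the shares of members were 84.7% and 75.7%. The replication clamp gene pcna was found in 78.9% and 70.7% of members, against 60.5% and 59.1% of enteric neurons. The topoisomerase gene top2a was found in 49.4% and 42.9% of members and the helicase gene mcm5 in 36.8% and 28.7%. Thinning left out 25 DMSO and 15 CVT-10216 members below 4000 UMIs, against 22 and 8 enteric neurons and 1026 and 1315 other cells. Members were above enteric neurons for all 4 genes in both libraries, although for mcm5 in CVT-10216 the values were only 28.7% and 26.5%, and the neuron class was not free of any of them.

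**Figure D2:**
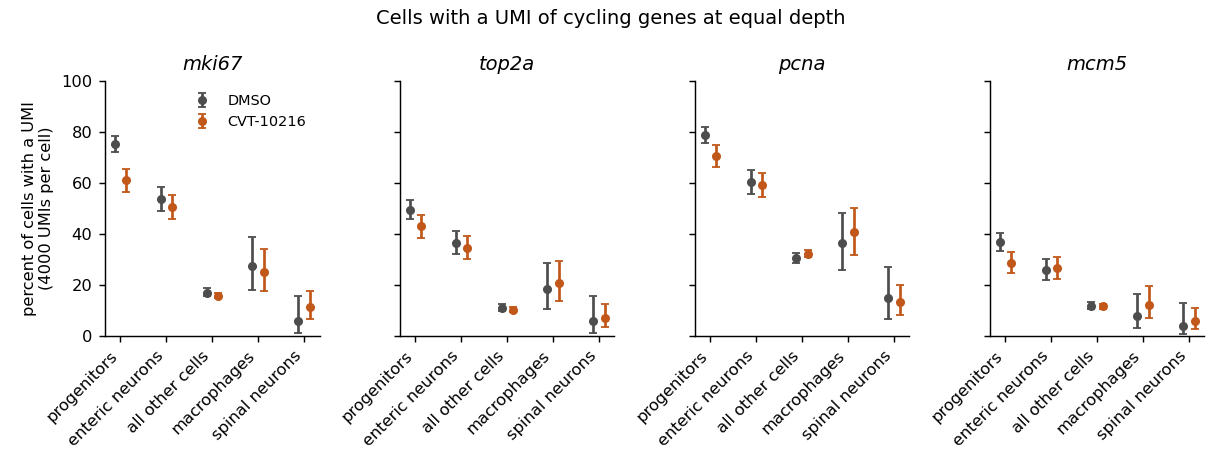
Percent of cells with at least 1 UMI of mki67, top2a, pcna and mcm5 (vertical axis) after every cell was thinned to 4000 UMIs, by class of cells and library. Points are single libraries with exact 95% Clopper-Pearson intervals, and for mki67 the members (75.3% and 60.9%) lie above enteric neurons (53.6% and 50.5%) and spinal neurons (5.56% and 11.2%).

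Over whole lists the pattern was the same. Against all other cells 38 of 48 S phase genes measured and 41 of 51 G2/M genes were at least 2-fold higher in both libraries, with median log2 ratios of 1.68 and 1.52 for S phase and 1.54 and 1.46 for G2/M (DMSO, then CVT-10216). The medians over all 16998 genes were -0.38 and 0.02, and 6.8% of them were higher. Against enteric neurons none of the 48 S phase and none of the 51 G2/M genes were 2-fold higher, and 1 G2/M gene was 2-fold lower. Of all 13637 genes measured only 1.2% were higher and 5.76% lower, so these counts alone say little about cycling. The list medians against neurons were 0.32 and 0.36 for S phase and 0.36 and 0.39 for G2/M. By phase scores 95.9% and 90% of members were placed in S or G2/M, but so were 51.9% and 49% of spinal neurons, so these calls had a high background. S phase calls alone made up 22.3% and 23.1% of members, 14.3% and 9.53% of enteric neurons and 1.85% and 2.1% of spinal neurons.

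Between the libraries, members lay lower for mki67 in CVT-10216 (log2 ratio -0.29, -0.33 to -0.24), and 0 of 47 S phase genes and 0 of 49 G2/M genes moved 2-fold in either direction. Of all genes measured 11.2% were higher and 0.179% lower. In the stricter subset, with fewer than 2 UMIs of elavl3 and elavl4, the medians were 0.03 for S phase and 0.06 for G2/M. Over all members they were -0.19 and -0.12. Among members with at least 2 UMIs of elavl3 and elavl4 the S phase list summed to 4298 CPM in DMSO and 3430 CPM in CVT-10216, and among those with none to 4531 and 4489 CPM. The level of mki67 was 639 and 484 CPM in the former and 729 and 677 CPM in the latter.

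Against enteric neurons, members were lower in neuronal genes, which summed to 3722 and 6464 CPM in members and 11145 and 13881 CPM in neurons over the list. Of 13637 genes measured, 163 (1.2%) were at least 2-fold higher in members in both libraries and 786 (5.76%) were at least 2-fold lower. Of 38 neuronal differentiation genes 19 were lower and none was higher, with median log2 ratios of -2.02 in DMSO and -0.99 in CVT-10216. The growth cone gene gap43 stood at 150 and 252 CPM in members and 961 and 1115 CPM in neurons. The tubulin regulator gene stmn2a stood at 39.5 and 169 CPM against 501 and 636, and the tubulin gene tuba1c at 430 and 596 CPM against 1066 and 1237. The microtubule regulator gene stmn1a was an exception at 839 and 712 CPM in members and 627 and 528 CPM in neurons. The lower levels of vipb (10 and 9.72 CPM against 3644 and 4924), galn and nos1 were set by the rule.

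Several lineage factors were higher in neurons than in members. The ETS gene etv1 stood at 145 and 134 CPM in members and 635 and 644 CPM in neurons. The Meis cofactor gene meis1b stood at 238 and 277 against 668 and 787 CPM, phox2a at 232 and 328 against 670 and 776, and hand2 at 584 and 731 against 1218 and 1612. For hoxa5a the levels were 35.7 and 33.9 against 152 and 140 CPM, and for cyp26b1, an enzyme that degrades retinoic acid, 45.1 and 36.5 against 141 and 182 CPM. The nicotinic receptor gene chrna3 stood at 6.36 and 15 against 68.3 and 110 CPM. Among the genes furthest below neurons were tph1b, an enzyme of serotonin synthesis (1.09 and 1.47 against 44.5 and 53.3 CPM), the globin gene xgb (1.89 and 1.19 against 54.4 and 50.6) and rims3, a gene of the presynaptic active zone (0.631 and 0.825 against 21.2 and 25.7). Of 33 lineage factors measured 7 were 2-fold lower in both libraries and 3 were higher, where 5.76% and 1.2% of all genes were. The median ratio of these 33 was 0.03 in DMSO and -0.13 in CVT-10216.

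Genes of the progenitor state differed less. The her6 level was 633 and 483 CPM in members and 463 and 426 CPM in neurons, and at 4000 UMIs per cell her6 was found in 76.2% and 71.1% of members and 53.3% and 51.2% of neurons. Of 35 Notch genes measured 1 was 2-fold higher than in neurons, where 1.2% of all genes were, with list medians of 0.31 and 0.18. Ret was lower in members (246 and 210 CPM) than in neurons (323 and 353 CPM). The genes furthest above neurons were of another kind, and low in level. They included the sensory channel genes p2rx3b (3.1 and 16.7 CPM against 0.144 and 0.612), p2rx3a (0.975 and 12.5 against 0.072 and 0.68) and trpa1b, the placode and sensory factor gene six1a, foxg1a and the serotonin-gated channel gene htr3a (2.58 and 22.3 against 0.144 and 4.08). For p2rx3b the level was 21.4 and 24.4 CPM in members without hoxb5b, 2.38 and 15.5 CPM in those with it, and 0.395 and 0.599 CPM in the stricter subset. All 6 xanthophore genes measured were also at least 2-fold higher than in neurons in both libraries, where 1.2% of all genes were. Their median log2 ratios were 2.28 and 1.49. Of these 6 genes, 4 were higher in the stricter subset, where 76 of 12622 genes were. With members holding hoxb5b alone, 3 of the 6 were higher. In that comparison 75 genes (0.559%) were higher than in neurons and 987 (7.36%) lower.

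**Figure D3:**
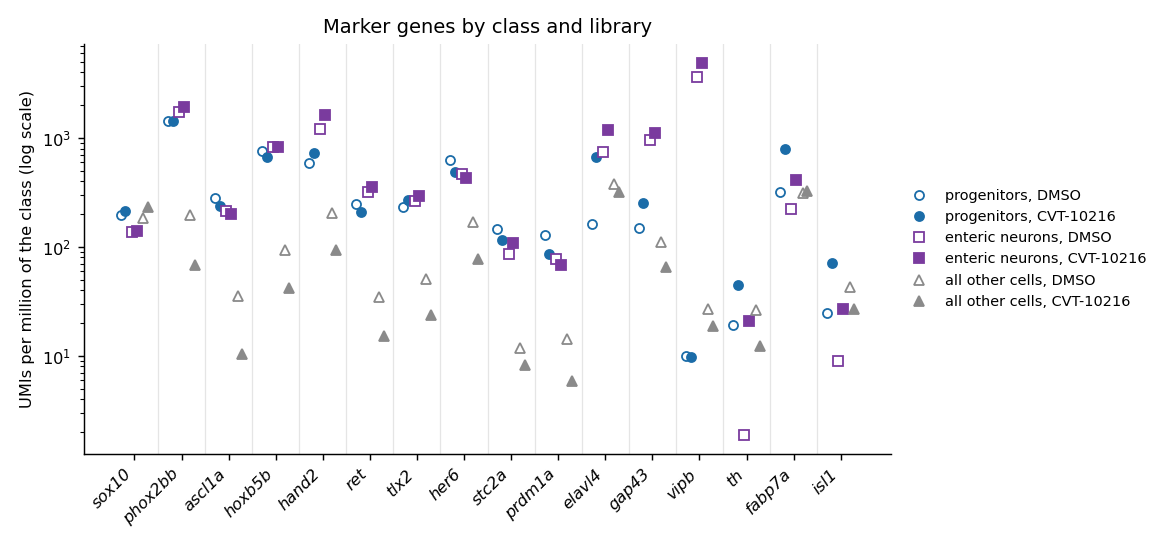
Level of 16 genes in CPM (vertical log axis) in members, enteric neurons and all other cells, with open symbols for DMSO and filled symbols for CVT-10216. Each symbol is 1 library, and hoxb5b, ret, stc2a and prdm1a are above all other cells in both, whereas gap43 and vipb are below enteric neurons.

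Compared with all other cells, 1156 of 16998 genes (6.8%) were at least 2-fold higher in members in both libraries and 3751 (22.1%) were lower. With the members holding hoxb5b alone, 1207 of 16940 genes (7.13%) were higher and 4149 (24.5%) lower. The list of enteric and autonomic factors had 16 of 34 genes higher, 2 of which (phox2bb and ascl1a) the rule used, and 2 lower, with medians of 1.03 and 1.67. Tlx2, a homeodomain factor needed for enteric neurons in mouse, stood at 232 and 269 CPM against 51.1 and 23.7. The T-box gene tbx2b stood at 300 and 304 CPM against 70 and 42.8, and tbx3a at 127 and 106 against 29.2 and 10.4. The collagen gene col14a1a (107 and 72.7 against 11.1 and 7.53 CPM) and stc2a were among the 10 genes furthest above other cells.

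Receptors of the Gdnf pathway, which guides enteric crest along the gut in mouse and fish, were high. Ret stood at 246 and 210 CPM against 35 and 15.25 CPM in all other cells, and in 54.1% and 48% of members at 4000 UMIs per cell against 1.3% and 0.862% of macrophages. The co-receptor gene gfra1a stood at 84.9 and 76.8 against 15.23 and 8.28 CPM, and gfra1b at 51.8 and 52.8 against 7.78 and 4.92. In all 7 of 23 genes of this list were higher and 2 lower, where 6.8% of all genes measured were higher and 22.1% lower. The endothelin receptor gene ednrba, by contrast, stood at 0.86 and 2.02 CPM in members and 77.1 and 81.4 CPM in all other cells, which include pigment cells. The BMP target gene id1 stood at 1983 CPM (1962 to 2004) and 2769 CPM (2738 to 2801) in members against 890 and 650.

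Notch genes were among those higher than in other cells, with 17 of 40 up, 4 down and medians of 0.63 and 1.3. Of all genes measured 6.8% were up and 22.1% down. The ligand genes dlb (201 and 233 CPM against 68.7 and 32.1) and dla (168 and 183 against 44.8 and 30.1) were higher together with the receptor genes notch1b (65 and 55.7 against 8.79 and 5.73) and notch3 (151 and 157 against 46.7 and 45.8). So were the Hairy target genes her2 (53.3 and 48.8 against 8.65 and 4.81) and her15.2 (149 and 172 against 39.5 and 23.7). Her15.2 shares near-identical copies with her15.1 in the genome, and reads could be split between them.

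Retinoic acid, made by the gut mesoderm, patterns vagal crest. Its degrading enzyme gene cyp26a1 stood at 102 and 58.4 CPM in members against 16.4 and 5.94 in other cells, and 0 and 0.678 CPM in members without hoxb5b. The retinaldehyde reductase gene dhrs3b stood at 285 and 230 CPM, with log2 ratios to other cells of 1.88 and 1.71, whereas aldh1a2, which makes retinoic acid, stood at 0.86 and 6.51 CPM against 21.5 and 22.2. Over the list 5 of 22 genes were higher and 7 lower. Over all genes measured the shares were 6.8% higher and 22.1% lower. Of 44 adhesion, matrix and guidance genes 5 were higher and 14 lower, and the higher ones included l1cama, a cell adhesion gene of migrating crest and axons (135 and 119 against 15.9 and 8.27 CPM), and ncam1b (45.9 and 49 against 6.44 and 3.57).

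RNA of the purine pathway that pigment cells need was lower in members than in all other cells, but not lower than in enteric neurons. The list summed to 749 and 654 CPM in members and to 592 and 535 CPM in enteric neurons. Against neurons the median log2 ratios were 0.34 and 0.40. Of 16 genes of de novo purine synthesis and its branches 9 were at least 2-fold lower than in all other cells and 1 was higher, with medians of -1.75 and -1.94. Of all genes measured 22.1% were lower and 6.8% higher. The level of paics was 79 and 70.6 CPM against 878 and 1053, and that of gmps 79.6 and 75.8 against 491 and 508. The exception was adssl, for the step from IMP towards AMP, at 144 and 121 against 37.8 and 35 CPM. The comparison class is rich in pigment cells. In macrophages paics stood at 46.6 and gmps at 53.5 CPM, closer to the members.

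The enzymes that the inhibitor concerns were present at a modest level. Aldh2.1 stood at 32.3 CPM (29.7 to 35.1) and 33 CPM (29.7 to 36.6) in members against 63.3 and 66.3 CPM in other cells, and aldh2.2 at 24.5 and 26.1 against 76.9 and 82.3. Adh5, which encodes the glutathione-dependent formaldehyde dehydrogenase, stood at 304 and 285 CPM against 215 and 199. Between the libraries the log2 ratios were 0.03 (-0.16 to 0.23) for aldh2.1, 0.09 (-0.13 to 0.31) for aldh2.2 and -0.09 (-0.15 to -0.02) for adh5. None of the 15 purine genes and none of the 19 one-carbon genes measured moved 2-fold, with medians of -0.22 and -0.21. Among 18 p53 target genes 2 were higher and none was lower, a share near the 11.2% of all 11716 genes that were higher between the libraries.

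Hox genes placed the members at an anterior axial level. Genes of paralog group 5 summed to 1069 CPM in DMSO and 919 CPM in CVT-10216 members, 1397 and 1275 CPM in enteric neurons and 173 and 89.4 CPM in all other cells. Groups 1 to 4 were also above other cells, at 281 and 234 against 45.4 and 22.6 CPM for group 1. Group 9, of posterior trunk and tail, stood at 25.4 and 102 CPM in members against 272 and 195 in other cells. Members without hoxb5b held 93.2 and 102 CPM of group 5 and 209 and 291 CPM of group 9, against 1107 and 1047 CPM of group 5 and 18.2 and 72.9 CPM of group 9 in members with hoxb5b. Since hoxb5b is itself the main group 5 gene, the split fixed the group 5 sums.

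Posterior Hox genes differed between the libraries in both enteric classes. Group 8 stood at 39.3 and 101 CPM in members and 30.7 and 88.1 CPM in enteric neurons, group 10 at 5.62 and 29 against 14.5 and 30.7, and group 12 at 3.1 and 23.3 against 7.7 and 21.5. In all other cells each of groups 8 to 13 was lower in CVT-10216. The level of hoxb9a was 15.4 CPM (13.6 to 17.3) in DMSO and 57.3 CPM (52.9 to 62) in CVT-10216 members, 21.8 and 57.1 CPM in neurons and 133 and 99.4 CPM in other cells. At least 2 UMIs of groups 9 to 13 were held by 7.06% (5.33 to 9.13) of DMSO and 22.8% (19.2 to 26.8) of CVT-10216 members, and by 5.99% (4.34 to 8.04) and 18.1% (14.3 to 22.4) of members with hoxb5b. Over the whole family 22 of 40 Hox genes were at least 2-fold higher in CVT-10216 members and none was lower, with a median log2 ratio of 1.42. Of all 11716 genes measured 11.2% were higher and 0.179% lower. After thinning the Hox median was -0.13. The 2 medians can cover different Hox genes, since thinned cells hold fewer UMIs. The cause of this change of direction was not tested. In the stricter subset 1 of 18 Hox genes was higher, against 1.16% of all 8619 genes measured.

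**Figure D4:**
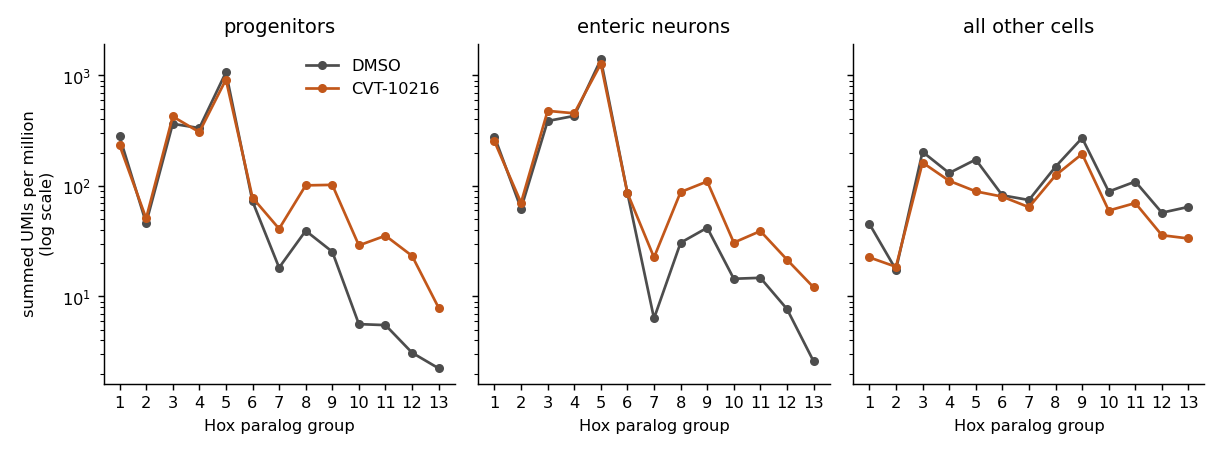
Summed CPM of the Hox genes of each paralog group (vertical log axis) against the group number, 1 being most anterior, in members, enteric neurons and all other cells. Each line is 1 library, group 5 is the peak in both enteric classes (1069 and 919 CPM in members), and groups 7 to 13 are higher in CVT-10216 than in DMSO in those classes but not in all other cells.

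Between CVT-10216 and DMSO members, 1307 of 11716 genes (11.2%) were at least 2-fold higher and 21 (0.179%) at least 2-fold lower. With 1 library each, these compare the libraries and not the conditions. The median gene had a log2 ratio of 0.11, and -0.07 under TMM scaling, so the values that follow carry a shift of that size. Of 38 neuronal differentiation genes 26 were higher and none was lower, with a median of 1.46. The level of elavl4 was 164 CPM (158 to 170) in DMSO and 670 CPM (655 to 685) in CVT-10216 members, with 743 and 1196 CPM in neurons and 377 and 317 CPM in other cells. For stmn2a it was 39.5 and 169 CPM, and for prph, an intermediate filament gene of peripheral neurons, 9.92 and 59 CPM. The 10 genes furthest above included slc17a6b, a vesicular glutamate transporter (3.1 and 24.1 CPM), the synaptic vesicle gene sypb (3.55 and 25.8), rbfox3b, a splicing factor of neurons (1.09 and 10.1), and cacna1ab, a calcium channel (0.803 and 7.8).

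Other lists moved in the same direction, where 11.2% of all genes measured were higher and 0.179% lower. All 8 sensory neuron genes were higher, among them isl1 (24.7 and 70.5 CPM) and pou4f1 (2.06 and 13.8 CPM). Among 12 sympathetic genes 7 were higher, with th at 19.3 and 45 CPM and dbh at 56.1 and 139, and with a list median of 1.09. In the stricter subset, which excludes th and dbh, only 2 of the 12 genes were measured. Their median was -0.084, which does not stand for the whole list. Among 17 glial genes 9 were higher, with fabp7a at 319 and 786, the membrane glycoprotein gene gpm6ab at 48 and 198 and gfap at 20.1 and 60.9. The glial list summed to 1396 and 2334 CPM in members and to 136 and 223 CPM in macrophages, so it was higher in CVT-10216 in both. After thinning, fabp7a had a UMI in 50.3% and 67.3% of members, and in 1 of 77 and 8 of 116 macrophages. The part of ambient RNA in the glial difference was not tested. Among members with hoxb5b 952 of 11278 genes (8.44%) were higher and 20 (0.177%) lower, with 22 of 37 neuronal genes higher, so the difference was not limited to the cells without hoxb5b.

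In the stricter subset, 377 DMSO and 169 CVT-10216 cells, 100 of 8619 genes (1.16%) were higher and 46 (0.534%) lower. None of 19 neuronal genes moved 2-fold there (median 0.04), which the limit on elavl3 and elavl4 favours by its construction. Of 14 glial genes 5 were at least 2-fold higher there, fabp7a with a log2 ratio of 1.05. No lineage gene of the next values moved 2-fold over all members. The log2 ratios over all members were 0.00 for phox2bb, 0.32 (0.28 to 0.37) for hand2 and -0.22 (-0.30 to -0.15) for ret. They were -0.32 (-0.41 to -0.22) for stc2a, -0.58 (-0.69 to -0.47) for prdm1a, -0.39 (-0.44 to -0.34) for her6 and -0.80 (-0.93 to -0.67) for cyp26a1. In the stricter subset prdm1a stood at -0.49 and cyp26a1 at -1.00037, at the 2-fold line.

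**Figure D5:**
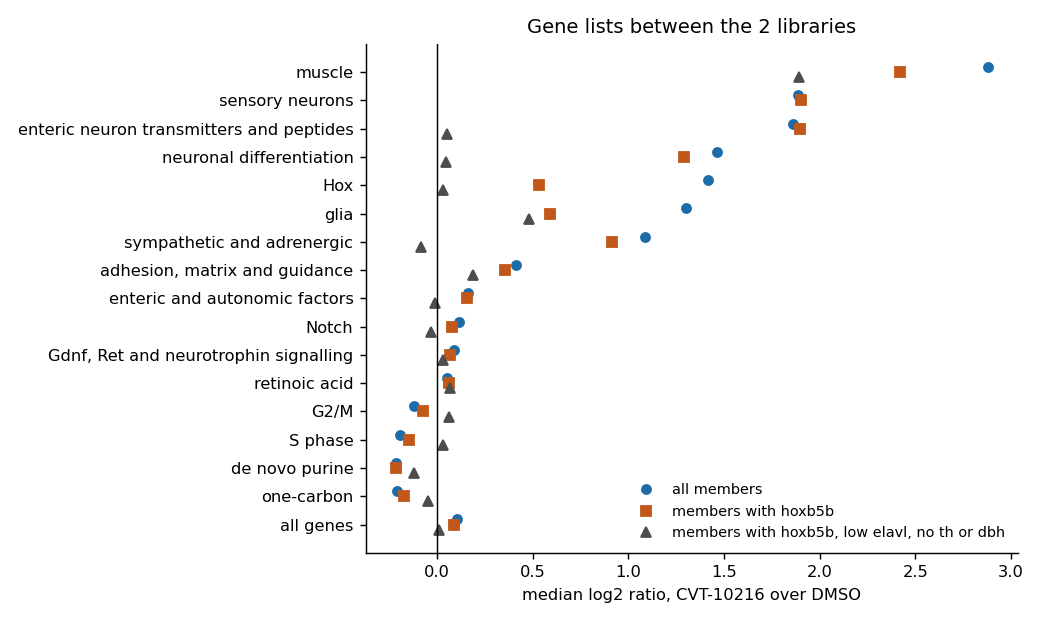
Median log2 ratio between the libraries, positive where CVT-10216 is higher (horizontal axis), for the genes of each list measured, in all members, in members with hoxb5b and in the stricter subset, each point from 1 library per condition. Neuronal differentiation is at 1.46 in all members and 0.04 in the stricter subset, whereas muscle is at 2.88 and 1.89.

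Some genes differed between the libraries in enteric neurons or all other cells as well. All 7 muscle genes were higher in CVT-10216 members, where 11.2% of all genes measured were. The actin gene actc1b stood at 9.46 and 73.9 CPM and the parvalbumin gene pvalb2 at 6.88 and 88.1. In all other cells the same genes stood at 72.4 and 228 and at 24.6 and 121 CPM, and in enteric neurons at 7.77 and 60.1 and at 6.84 and 30. Summed muscle markers stood at 37.8 and 294 CPM in members and at 79.1 and 200 CPM in macrophages. The glucocorticoid-responsive gene fkbp5 stood at 6.31 and 26.5 CPM in members, 5.25 and 31.5 in neurons and 28.7 and 72.7 in other cells, and remained higher in the stricter subset. The mitochondrial carrier gene ucp2 stood at 79 and 272 CPM in members, 60.8 and 208 in neurons and 485 and 570 in other cells. In the other direction the heat shock gene hsp70.3 stood at 75.5 and 37.1 CPM in members, 59.8 and 29.1 in neurons and 56.3 and 23.6 in other cells. The part of ambient RNA, dissection or handling in these differences was not tested.

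Markers of other cell types were found in members too. The xanthophore gene gch2 stood at 168 and 224 CPM in members, 37.6 and 111 in enteric neurons, 103 in macrophages and 3868 and 4380 in all other cells. Summed xanthophore genes stood at 203 and 279 CPM in members and at 280 and 203 CPM in macrophages. In DMSO the members thus lay below macrophages for this sum. All 8 melanophore and all 8 iridophore genes were at least 2-fold lower than in other cells, as the limits on pigment genes favour. Macrophage markers summed to 4.7 and 16.8 CPM in members, against 9694 and 8895 CPM in macrophages, and to 5.79 and 45.5 CPM in the stricter subset. No doublet caller was run. Cells with at least 3 UMIs of macrophage, muscle, epithelial or erythroid markers per 10,000 UMIs made up 5.73% (4.17 to 7.64) of DMSO and 27.8% (23.8 to 32) of CVT-10216 members, 5.69% and 16.7% of enteric neurons and 39.3% and 57.5% of all other cells. Among members without hoxb5b the shares were 16.4% and 51.2%. This difference moved with every comparison between the libraries. Without such cells 1005 genes were higher in CVT-10216 members and 30 lower, and the list medians were 1.44 for neuronal differentiation, 1.11 for glia, 1.25 for Hox and 1.44 for muscle. The muscle median is a description only, since muscle markers were used to leave cells out. With the marker-holding cells left out, members made up 22.6% and 10.9% of the cells left. Without cells above the 95th percentile of UMIs in each library they made up 15.18% and 6.03%.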

How the data were processed

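Both libraries were made with the 10x Genomics 3' v3 kit. Per the paper's methods and the submitters' notes, the authors aligned reads to GRCz11 (Ensembl annotation with GFP and mCherry added) with Cell Ranger (2.1.1 and 3.1.0 are both listed), aggregated the libraries and filtered cells. The deposited values are whole-number UMI counts per gene and barcode, without normalization. Whether aggregation equalised depth is not given in the sources used here. Barcode suffix 1 was taken as DMSO and 2 as CVT-10216, whose cell numbers match those of the methods. The rule was also applied to all 13360 deposited barcodes, where 1 further barcode per library passed it.

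UMIs were summed per class and library in Python 3.11.15 (numpy 2.4.6, scipy 1.17.1, pandas 2.3.3) and expressed as CPM. Log2 ratios used a pseudocount of 0.5 UMIs. A gene was measured with at least 50 summed UMIs over the classes compared, and was called higher or lower at 2-fold, in both libraries for comparisons of classes. Cells were thinned to 4000 UMIs with a fixed seed for shares with a UMI and for phase scores (scanpy 1.11.5, human S and G2/M markers matched by symbol), and shallower cells were left out. TMM factors came from edgeR 4.0.16. Ratios and intervals were run only on simulated Poisson sums without variation between cells, so this does not show how the intervals hold for uneven cells. Named genes are the markers and rule genes, list members (at most 4 at each end, and those a result turns on), the 10 genes at each end of each comparison of classes, and the 10 at each end between libraries with at least 10 UMIs in each, separate intervals and no cell over 20% of the UMIs. Genes set against other cells are from these groups. Macrophages and spinal neurons were set by marker counts. Members and lists were chosen with earlier results of these data known. Promoter motifs were not analysed here.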

Additional observations from a re-analysis of the deposited data

Results flagged for a closer look

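For some genes the ratio of members to another class was at least 2-fold in opposite directions in the 2 libraries, each with an interval on 1 side of no difference. The difference between the ratios was not tested, and both come from 1 library each. Against enteric neurons (log2 ratio in DMSO, then in CVT-10216) the keratin gene cyt1 stood at 2.13 and -1.42, the fibronectin gene fn1b at 1.55 and -1.49 and the chaperone gene hsp90aa1.1 at 2.75 and -1.41. The level of cyt1 was 22.5 and 24.8 CPM in members but 5.11 and 66.5 CPM in neurons. Against all other cells 14 genes, most of them neuronal, were lower in DMSO members and higher in CVT-10216 members. The neuronal markers were elavl4 at -1.20 and 1.08, stmn2a at -1.0035 and 1.48, gng3 at -1.31 and 1.18, nrxn2b at -1.97 and 1.06, rab6ba at -1.84 and 1.51, scn8aa at -1.96 and 1.15 and sncga at -2.37 and 1.07. The transmitter and peptide genes were chga at -1.48 and 1.72, scg2b at -1.17 and 1.01, slc17a6b at -1.76 and 1.32 and slc18a2 at -1.64 and 1.97. The calcium-binding protein gene calb2a stood at -3.48 and 2.11. The neurotrophin receptor gene ngfra stood at -1.12 and 1.53, and SMIM18 at -2.01 and 2.33.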

How the results depend on the processing

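With 1 library per condition no result has a replicate check, and depth limits low genes. No paired analysis was possible because each condition has 1 library and the labels give no replicate numbers. The alternative on promoters was not run. The log2 ratio of the share of members stayed negative in every alternative. It was -1.47 with both phox2bb and ascl1a present (12.1% and 4.36%), -0.98 with no limit on transmitter genes (23.5% and 11.9%) and -1.05 without cells holding other cell type markers. Chosen after seeing the data, it was -1.50 with hoxb5b required and -1.76 in the stricter subset. Genes higher than in enteric neurons numbered 386 with cells weighted equally, 649 with at least 1 summed UMI and 75 with hoxb5b required, against 163; genes lower numbered 1280 with equal weights and 1341 with 1 UMI, against 786. Genes lower than in all other cells fell to 2377 after thinning, against 3751. Between the libraries the higher genes numbered 373 after thinning, where fewer UMIs leave fewer genes measured, 4980 with 1 UMI, 1058 with TMM factors and 100 in the stricter subset, against 1307. The lower genes numbered 43 with TMM factors, 44 with equal weights, 627 with 1 UMI and 46 in the stricter subset, against 21. The share in S or G2/M (DMSO and CVT-10216) was 97.6% and 95.1% unthinned and 91.9% and 81.7% with exactly matching symbols, and in the stricter subset 99.4% and 99.4%. It was 93.6% in CVT-10216 with hoxb5b required. The share with elavl3 and elavl4 was 59.3% and 65.8% at 1 UMI, 34.6% and 45.5% at 3 UMIs and 22.9% and 37.6% after thinning. Directions turned as follows. The Hox median between the libraries was -0.13 after thinning, which can change the Hox genes measured, and the cause was not tested. The rest turned in the stricter subset, which by construction holds few neuronal cells. There the sympathetic median was -0.084, over only 2 genes measured. The ratios between the libraries were -0.037 for slc17a6b and -0.40 for myt1la. Against neurons they were -0.079 for p2rx3a, -1.28 for six1a, -1.99 for foxg1a, -0.78 for syt5a, -1.33 for trpa1b, -1.51 for si:dkey-43k4.5 and -3.11 for htr3a. The cause of the other changes was not tested.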
